A study of Mus musculus with 2 samples.

Results

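The Dlk1-Meg3, H19-Igf2 and Kcnq1 imprinted genes are the 10 genes of 3 neighbouring sets on 2 chromosomes, and they were taken from the deposited gene table by their symbols. All 10 symbols were found among the 24532 genes of the table, each as 1 row. Meg3, Rian, Mirg and Dlk1 make up the Dlk1-Meg3 cluster on chromosome 12, H19 and Igf2 the H19-Igf2 cluster on chromosome 7, and Cdkn1c, Phlda2, Ascl2 and Kcnq1ot1 the Kcnq1 cluster beside it. To see how these genes differ between wild-type cells and cells in which 1 Sox2 allele lacks an O-GlcNAc site, their read counts and their TPM (a transcript level scaled to transcript length and to a fixed library total) were compared between the libraries of E14 and Sox2 T258A embryonic stem cells (ESCs).

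E14 is an established mouse ESC line, wild-type for Sox2, that was kept in serum with leukemia inhibitory factor (LIF). Sox2 T258A ESCs were derived from E14 with CRISPR/Cas9 and grown up from single cells, and in them 1 allele of Sox2 carries the threonine-to-alanine change T258A and the other stays wild-type. During selection and routine culture the mutant cells also received 2i (PD0325901 and CHIR99021, inhibitors of Mek and Gsk3), which was withdrawn before the cells were used. Each genotype had 1 library of polyadenylated RNA, so genotype, clonal origin and culture history differ together and cannot be told apart. Without a further library of either genotype, the differences could not be checked against replicates or given p-values.

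Imprinted genes are transcribed mainly from the allele inherited from one parent, under the control of DNA methylation that is set in the germ line. At the Dlk1-Meg3 cluster, the maternal allele makes the long noncoding RNAs Meg3, Rian and Mirg, while the paternal allele makes Dlk1. At the H19-Igf2 cluster, the maternal allele makes H19 and the paternal allele Igf2, a growth factor, and at the Kcnq1 cluster the paternal noncoding RNA Kcnq1ot1 is known to silence neighbours such as Cdkn1c, Phlda2 and Ascl2 in cis. In ESCs these marks are known to shift with culture, and the noncoding RNAs of the Dlk1-Meg3 cluster are a common measure of that. By this textbook assignment, 7 of the 10 genes are maternally and 3 (Dlk1, Igf2 and Kcnq1ot1) paternally expressed. The gene table does not separate alleles, so parental origin was not measured here.

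The E14 library held 60263536 counted reads over 17645 genes, and the Sox2 T258A library 44609228 reads over 16764 genes. The ESC markers were high in both libraries, for example Pou5f1 with a TPM of 1725 in E14 and 1759 in Sox2 T258A ESCs, and 7 of 8 differed less than 2-fold, while Nanog had a log2 ratio of -1.07 (36683 and 11728 reads). Sox2 itself had 28936 and 14270 reads (-0.44), and the table cannot show the edit, since it holds no sequence. All 95% intervals are exact (Clopper-Pearson) intervals of the read counts. They cover counting error alone, because each genotype had 1 library. PCR copies of 1 molecule are counted as separate reads, so the intervals can be too narrow even for counting error. In a pool of cells, fewer cells that express a gene and less RNA per cell cannot be told apart.

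The noncoding RNAs of the maternal chromosome 12 set and H19 had upregulated expression in Sox2 T258A ESCs, between 2.81-fold and 5.03-fold. The 10 genes together took 30543 reads in E14 (0.0507% of all reads) and 61997 in Sox2 T258A ESCs (0.139%), a 2.74-fold larger share. Of the 10 genes, 6 reached a TPM of 10 in at least 1 library, the filter of the study, and each of the 6 did so in both libraries. Of these, Meg3, Rian, Mirg and H19 were more than 2-fold higher and none was more than 2-fold lower in Sox2 T258A ESCs, against 4.17% of all 9094 genes past the filter that were higher and 4.07% that were lower by the same rule. With no filter on level, these 4 genes, and Ascl2 in the lower direction, had a counting interval that lay wholly past 2-fold. By that rule, 4.54% of 17061 genes with more than 3 reads were higher and 7.33% were lower. Meg3, Rian and Mirg are neighbours on the same strand of the same cluster, so the 4 higher genes cannot be read as 4 independent results. The interval excluded no change for 9 of the 10 genes, the exception being Dlk1. The share of all genes by this looser rule was not computed. At this depth small ratios pass it too, as that of Pou5f1 did (log2 ratio 0.03, 0.01 to 0.04), so the count does not set these genes apart.

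**Figure D1:**
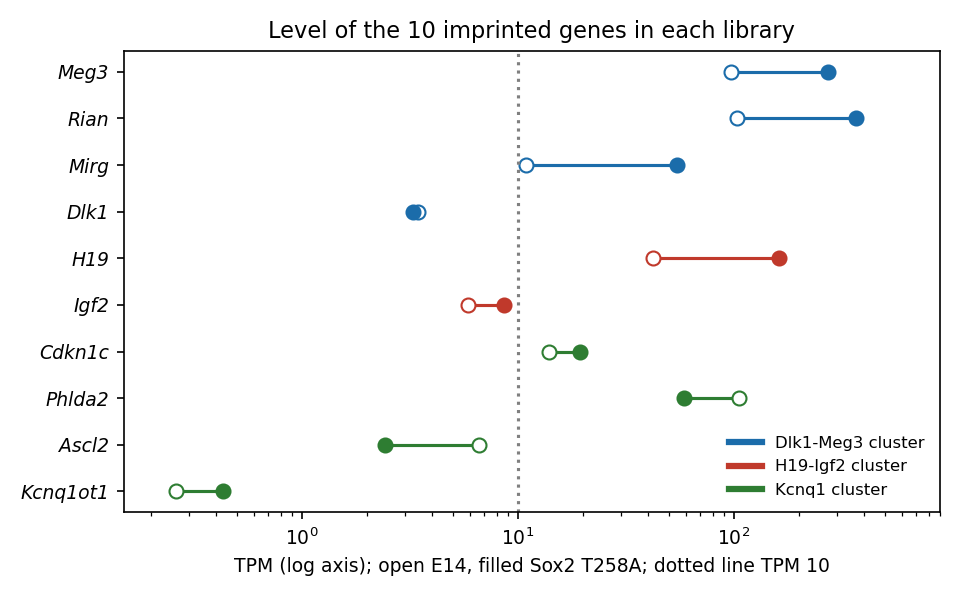
TPM of each imprinted gene (log axis) in E14 (open circles) and Sox2 T258A ESCs (filled circles), 1 library each, coloured by cluster, with a dotted line at TPM 10. Meg3, Rian, Mirg and H19 lie to the right in Sox2 T258A ESCs, Phlda2 and Ascl2 lie to the left, and the circles for Dlk1 overlap.

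The order of levels differed between the libraries. In E14, Phlda2 had the highest TPM of the 10, followed by Rian, Meg3, H19, Cdkn1c, Mirg, Ascl2, Igf2, Dlk1 and Kcnq1ot1. In Sox2 T258A ESCs the order was Rian, Meg3, H19, Phlda2, Mirg, Cdkn1c, Igf2, Dlk1, Ascl2 and Kcnq1ot1. Within E14, Phlda2 and Rian differed by a factor of 1.02 (95% counting interval 0.972 to 1.06) and Ascl2 and Igf2 by 1.12 (0.977 to 1.27), so the order of these neighbours was not resolved. Within Sox2 T258A ESCs the same held for Phlda2 and Mirg, with a factor of 1.08 (0.990 to 1.17). All other neighbours in these orders differed by more than counting error.

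Meg3 (maternally expressed 3, Entrez gene 17263) is the first long noncoding RNA downstream of Dlk1 and lies on the plus strand of chromosome 12 from 109540996 to 109571729 (GRCm38). It had 9787 reads and a TPM of 97.6 in E14, and 21345 reads and a TPM of 273.9 in Sox2 T258A ESCs. The higher library was thus the mutant one, by 2.81-fold, a log2 ratio of 1.49 (1.45 to 1.52). In the ranking of the 9094 genes by ratio, Meg3 was number 128 from the highest. Meg3 is the one member for which TPM and read count scale differently, since the length implied by reads and FPKM was 3185 bases in E14 and 3694 bases in Sox2 T258A ESCs, for a row that holds 3 transcripts. Read counts scaled to the library total (CPM), which take no length into account, gave a log2 ratio of 1.56.

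The 250 bases upstream of the first Meg3 start and of the Rian start are shown because they stand for the 2 most abundant of the noncoding RNAs and differ in CpG, the dinucleotide that carries DNA methylation. CpG is in capitals, and the sequences are RefSeq's for GRCm38.p6, plus strand, chr12:109540746-109540995 for Meg3 and chr12:109603695-109603944 for Rian.
Meg3: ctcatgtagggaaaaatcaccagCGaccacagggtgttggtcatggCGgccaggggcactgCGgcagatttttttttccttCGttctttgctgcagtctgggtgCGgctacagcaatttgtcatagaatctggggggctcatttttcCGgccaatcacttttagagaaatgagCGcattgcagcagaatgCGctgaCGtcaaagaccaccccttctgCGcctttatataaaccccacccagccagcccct
Rian: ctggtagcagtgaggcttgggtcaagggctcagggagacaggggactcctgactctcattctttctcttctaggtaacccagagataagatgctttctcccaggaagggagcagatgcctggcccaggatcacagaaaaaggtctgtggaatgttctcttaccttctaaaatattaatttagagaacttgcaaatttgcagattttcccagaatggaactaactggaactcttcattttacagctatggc
The Meg3 window held 10 CpG, a number reached by 37.8% of 32851 mouse promoter windows of this length, and the Rian window held 0, where the median was 6. Searched on both strands, the Meg3 window held TATAAA, present in 12.4% of all windows, and neither window held the Sox motif core CATTGT (10.7% of all windows) or the octamer ATGCAAAT (1.60%). The window upstream of a second Meg3 start held 0 CpG and that of Mirg held 10, so the contrast in CpG depends on the start chosen.

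Rian (RNA imprinted and accumulated in nucleus, Entrez gene 75745) is a long noncoding RNA that hosts box C/D small nucleolar RNAs, at 109603945 to 109661716 on the plus strand. Its 11727 reads in E14 gave a TPM of 104.0, and its 27719 reads in Sox2 T258A ESCs gave 367.0, the highest TPM of the 10 genes in that library. Rian was 3.53-fold higher in Sox2 T258A ESCs, a log2 ratio of 1.82 (1.79 to 1.85). Mirg (miRNA containing gene, Entrez gene 100040724), which hosts a group of microRNAs at the far end of the cluster from 109734981 to 109749458, had the largest ratio of the 10. It had 446 reads and a TPM of 10.9 in E14, and 1502 reads and a TPM of 54.8 in Sox2 T258A ESCs. This 5.03-fold difference (log2 ratio 2.33, 2.18 to 2.49) placed Mirg at number 34 among the 9094 genes.

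The summed reads of Meg3, Rian and Mirg were 21960 in E14 and 50566 in Sox2 T258A ESCs, which is 364.4 and 1134 CPM, 3.11-fold more. The share of this sum taken by each gene does not depend on how the libraries are scaled. Rian took 53.4% (52.7% to 54.1%) in E14 and 54.8% (54.4% to 55.3%) in Sox2 T258A ESCs, whereas Meg3 took 44.6% (43.9% to 45.2%) and 42.2% (41.8% to 42.6%). Mirg took 2.03% (1.85% to 2.23%) and 2.97% (2.82% to 3.12%). Rian and Mirg thus took a larger and Meg3 a smaller share in Sox2 T258A ESCs, by a few percentage points at most. The intervals of the 2 libraries do not overlap, but the shares are parts of 1 sum and so are not separate results. How often shares of other genes differ this much between the libraries was not tested. On the TPM scale, Rian over Meg3 was 1.07 in E14 and 1.34 in Sox2 T258A ESCs, and Mirg over Meg3 was 0.111 and 0.200.

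Dlk1 (delta like non-canonical Notch ligand 1, Entrez gene 13386) encodes a transmembrane protein related to the Delta family and is the protein-coding, paternally expressed member of the cluster, at 109452485 to 109463336. It had 469 reads and a TPM of 3.45 in E14, and 297 reads and a TPM of 3.26 in Sox2 T258A ESCs. The levels overlapped within counting error, with a log2 ratio of -0.08 (-0.30 to 0.13), and both lay under the TPM filter. The TPM of Meg3 over that of Dlk1 within a library was therefore 28.3 (25.8 to 31.1) in E14 and 84.0 (74.9 to 94.5) in Sox2 T258A ESCs.

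**Figure D2:**
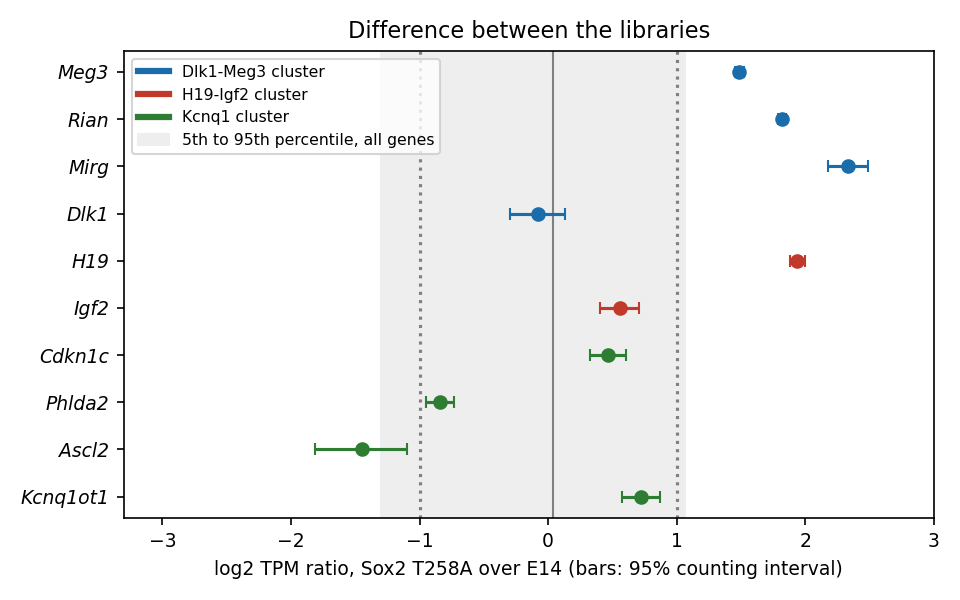
Log2 ratio of TPM (Sox2 T258A over E14, no pseudocount) for each imprinted gene, with bars for the 95% counting interval, dotted lines at 2-fold, a grey line at the median and a grey band from the 5th to the 95th percentile of the 13269 genes whose mean TPM reached 1 (on the log2(TPM + 0.1) scale). Mirg, H19, Rian and Meg3 lie right of the band at 2.33, 1.94, 1.82 and 1.49, Ascl2 lies left of it at -1.45, and the bar of Dlk1 crosses 0.

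The table also holds 20 rows for small RNAs that lie inside Rian or Mirg. Of these, 7 had more reads in Sox2 T258A ESCs, 2 had fewer and 11 had equal numbers, 5 of them with no reads in either library. At most 3 reads in both libraries were held by 12 rows. These are raw reads of libraries of unequal depth, so equal reads are not equal levels. The row with the most reads was AF357359, a small nucleolar RNA inside Rian, with 91 reads in E14 and 180 in Sox2 T258A ESCs (TPM 96.0 and 283.1). Mir410 inside Mirg had 13 reads in E14 and 1 in Sox2 T258A ESCs, and Mir3072 inside Mirg had 12 and 21 reads. Such reads cannot be assigned apart from the host RNA, so these rows are uncertain and are not independent of the Rian and Mirg values.

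The microRNAs made from these hosts were not measured, since mature microRNAs have no poly(A) tail. RefSeq places 16 hairpins with 32 mature microRNAs inside the 10 genes, of which 10 hairpins with 19 mature microRNAs lie in Mirg, and the 16 corresponding rows summed to 37 reads in E14 and 31 in Sox2 T258A ESCs. The mature sequences of the 2 hairpins with the most reads, and of the 1 pair with a common seed, are given with the seed (bases 2 to 8) in capitals.
mmu-miR-410-3p: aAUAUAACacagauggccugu
mmu-miR-3072-5p: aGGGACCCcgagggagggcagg
mmu-miR-453: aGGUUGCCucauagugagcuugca
mmu-miR-496a-5p: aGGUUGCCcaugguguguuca
Only mmu-miR-453 and mmu-miR-496a-5p shared a seed, GGUUGCC, among the 32.

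H19 (Entrez gene 14955), a maternally expressed long noncoding RNA and the host of miR-675, lies on the minus strand of chromosome 7 from 142575530 to 142578146. It had 3062 reads and a TPM of 42.5 in E14, and 7865 reads and a TPM of 162.9 in Sox2 T258A ESCs. H19 was thus 3.83-fold higher in Sox2 T258A ESCs, a log2 ratio of 1.94 (1.88 to 2.0), and stood at number 54 of the 9094 genes. The Mir675 row inside it had 1 read in each library. Its mature sequences are shown because they are the known products of H19.
mmu-miR-675-5p: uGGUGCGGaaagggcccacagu
mmu-miR-675-3p: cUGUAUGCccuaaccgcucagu

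Igf2 (insulin-like growth factor 2, Entrez gene 16002), the paternally expressed growth factor of the same cluster at 142650768 to 142666816, differed less. It had 728 reads and a TPM of 5.90 in E14, and 725 reads and a TPM of 8.67 in Sox2 T258A ESCs, so both libraries were under the TPM filter. The 1.47-fold difference (log2 ratio 0.56, 0.41 to 0.71) was in the same direction as that of H19. H19 took 80.8% (79.5% to 82.0%) of the reads of the pair in E14 and 91.6% (91.0% to 92.1%) in Sox2 T258A ESCs, and the TPM of H19 over Igf2 was 7.204 (6.64 to 7.82) and 18.8 (17.4 to 20.3). Igf2os overlaps Igf2 on the other strand and had 16 and 13 reads, and the use of strand in the counting is not given in the sources used here, so a small part of the Igf2 reads is uncertain.

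**Figure D3:**
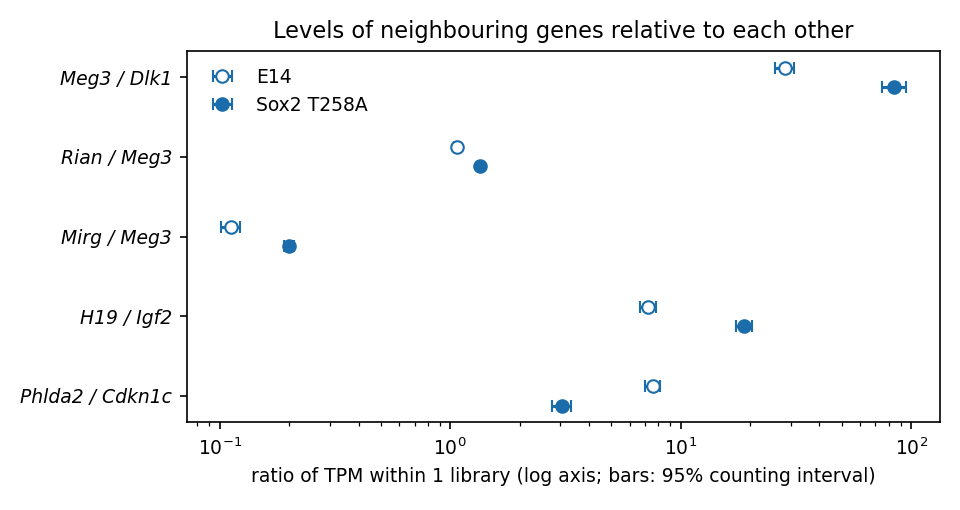
TPM of one gene over that of a neighbour in the same library (log axis) in E14 (open) and Sox2 T258A ESCs (filled), with bars for the 95% counting interval. Meg3 over Dlk1, Rian over Meg3, Mirg over Meg3 and H19 over Igf2 are higher in Sox2 T258A ESCs, and Phlda2 over Cdkn1c falls from 7.55 to 3.05.

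The Kcnq1 cluster had no common direction. Its 4 genes had log2 ratios from -1.45 to 0.72, and the median on the log2(TPM + 0.1) scale was -0.19, against 1.65 for the 4 genes of the Dlk1-Meg3 cluster, 1.24 for H19 and Igf2, and 0.04 for all 13269 genes whose mean TPM reached 1. Without Kcnq1ot1, whose mean TPM was under 1, the median of the Kcnq1 cluster was -0.84. Summed reads of the 3 protein-coding genes Cdkn1c, Phlda2 and Ascl2 were 60.3 CPM in E14 and 39.99 CPM in Sox2 T258A ESCs, a log2 ratio of -0.59 (-0.68 to -0.51).

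Cdkn1c (p57, Entrez gene 12577), an inhibitor of cyclin-dependent kinases, lies at 143458339 to 143461059 on the minus strand. It had 847 reads and a TPM of 14.01 in E14, and 784 reads and a TPM of 19.3 in Sox2 T258A ESCs, 1.38-fold higher (log2 ratio 0.47, 0.32 to 0.61). Phlda2 (Entrez gene 22113), a pleckstrin homology domain protein known to restrain placental growth, lies at 143501545 to 143503145. It had 2454 reads and a TPM of 105.7 in E14, and 917 reads and a TPM of 59.0 in Sox2 T258A ESCs. These neighbours therefore differed in opposite directions, with Phlda2 1.79-fold lower (log2 ratio -0.84, -0.95 to -0.73), and Phlda2 over Cdkn1c went from 7.55 (6.98 to 8.17) to 3.05 (2.77 to 3.36). The size for Phlda2 depended on a trend of the ratio with GC content and transcript length, without which its log2 ratio was -0.40.

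Ascl2 (Entrez gene 17173), a basic helix-loop-helix transcription factor needed for the trophoblast lineage, lies at 142966822 to 142969264, between the H19-Igf2 and Kcnq1 genes. It had 335 reads and a TPM of 6.58 in E14, and 83 reads and a TPM of 2.42 in Sox2 T258A ESCs. Ascl2 was 2.72-fold lower (log2 ratio -1.45, -1.81 to -1.10), the lowest ratio of the 10, although both libraries lay under the TPM filter. Its 250 bases upstream (RefSeq, GRCm38.p6, minus strand, chr7:142969265-142969514) are shown, with CpG in capitals, as those of the 1 member whose interval lay past 2-fold in the lower direction.
Ascl2: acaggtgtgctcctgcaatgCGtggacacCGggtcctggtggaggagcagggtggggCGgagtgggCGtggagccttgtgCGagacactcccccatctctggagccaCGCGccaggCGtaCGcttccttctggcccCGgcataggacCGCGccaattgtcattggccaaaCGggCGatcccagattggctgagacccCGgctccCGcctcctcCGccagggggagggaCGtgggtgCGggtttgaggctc
This window held 19 CpG, a number reached by 19.7% of all windows, and none of the 3 motifs searched.

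Kcnq1ot1 (Entrez gene 63830), the paternally expressed antisense RNA of Kcnq1, spans 83437 bases from 143213111 to 143296547 and was the least abundant of the 10 per length in both libraries. It had 688 reads and a TPM of 0.261 in E14, and 760 reads and a TPM of 0.431 in Sox2 T258A ESCs, 1.65-fold higher (log2 ratio 0.72, 0.57 to 0.87). With the trend on GC content and length removed, this ratio was 0.11. Kcnq1, which covers Kcnq1ot1 on the other strand, had 9 reads in E14 and 0 in Sox2 T258A ESCs, and without a stated strand setting the reads of both cannot be told apart.

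By class, all 5 noncoding RNAs had a higher TPM in Sox2 T258A ESCs, whereas of the 5 protein-coding genes 2 (Igf2 and Cdkn1c) were higher and 3 (Dlk1, Phlda2 and Ascl2) were lower, Dlk1 within counting error. Of the 7 genes that textbooks give as maternally expressed, Meg3, Rian, Mirg, H19 and Cdkn1c were higher and Phlda2 and Ascl2 lower. Of the 3 paternally expressed genes, Igf2 and Kcnq1ot1 were higher and Dlk1 was within counting error. The share of all genes with a higher TPM was not computed, and Meg3, Rian and Mirg are neighbours in the same cluster. Kcnq1ot1 had a log2 ratio of only 0.11 with the trend on GC content and length removed. These counts therefore do not set a class or a parental allele apart.

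Genes around the clusters were then examined. Around the chromosome 12 cluster (within 500 kb of a member), 4 genes outside the members reached a mean TPM of 1. Wdr25 and Begain, upstream of Dlk1, had log2(TPM + 0.1) ratios of -0.57 (806 and 363 reads) and -0.43 (297 and 146 reads). 6430411K18Rik, between Meg3 and Rian, had 2.02 (34 and 102 reads), and Mir485, next to Mirg, had 2.11 on only 1 and 4 reads. Both of these reached the mean TPM of 1 only through Sox2 T258A ESCs. Rtl1, which covers the stretch between Meg3 and Rian and overlaps both, had 0 and 2 reads. Farther downstream Dio3, a deiodinase that is also imprinted, had 137 and 22 reads (-1.88).

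Around H19, Igf2 and the Kcnq1 genes, 17 genes outside the members reached a mean TPM of 1, and their median was -0.21. None was more than 2-fold higher, the highest being Tnfrsf22 at 0.30, and 2 were more than 2-fold lower, which is near the shares among all 13269 genes by the same rule, 5.70% higher and 8.00% lower. The lower genes were Tspan32 (105 and 15 reads, -2.13), between Ascl2 and Cd81, and Slc22a18 (234 and 38 reads, -1.97), which lies between Cdkn1c and Phlda2. Mrpl23, the neighbour of H19 on the far side from Igf2, had -0.19 (3220 and 1893 reads). Of other genes of this region, Cars had -0.89, Cd81 -0.52, Nap1l4 0.24, Tssc4 0.15 and Osbpl5 0.07, and Ins2 had no reads. Tssc4 and Osbpl5 changed sign under another scaling, and Mrpl23 did so with the trend on GC content and length removed. For comparison, the median over all of chromosome 7 was -0.07 (1086 genes) and over chromosome 12 it was 0.06 (477 genes).

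**Figure D4:**
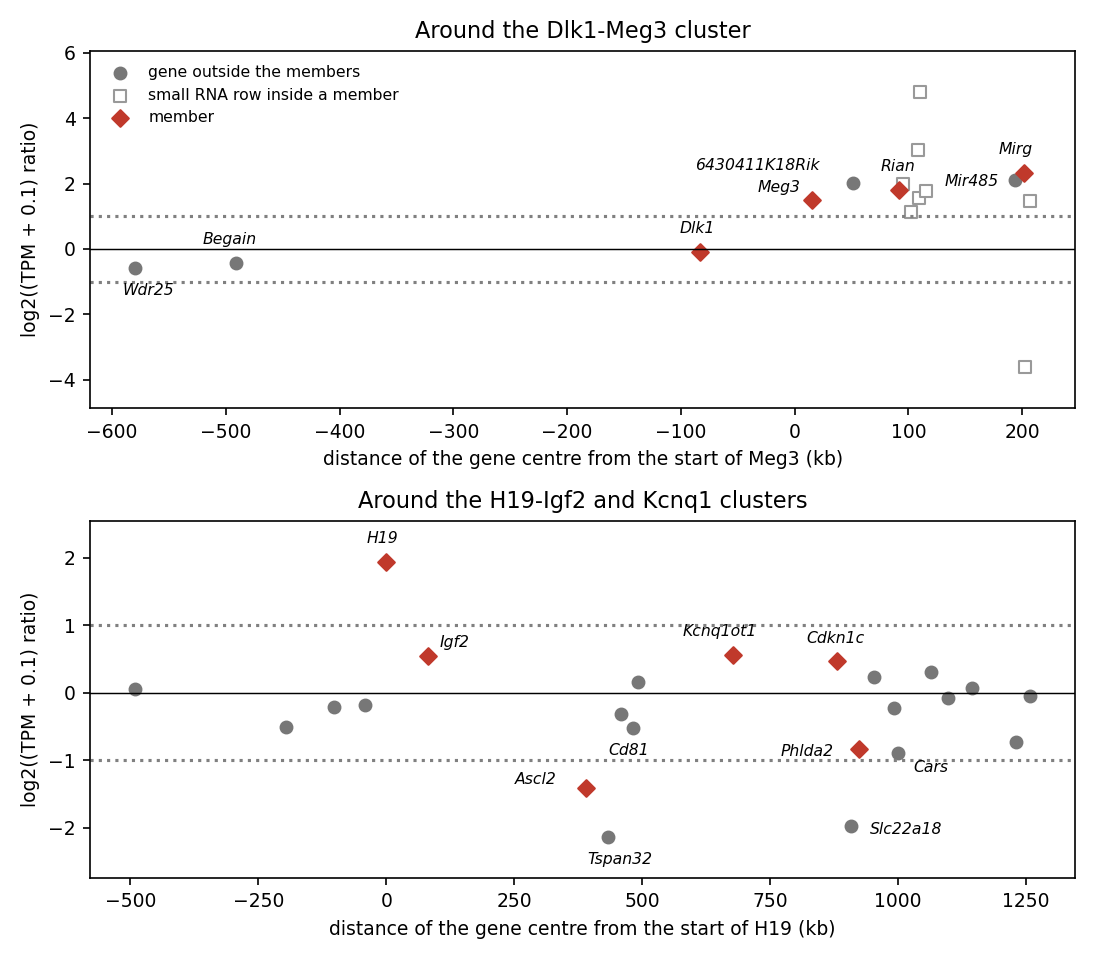
Log2((TPM + 0.1) ratio), Sox2 T258A over E14, against the distance of each gene's centre (kb) from the start of Meg3 (top) and of H19 (bottom), for members (red diamonds) and for rows that reached a mean TPM of 1 outside them (grey circles) or inside one (open squares), with dotted lines at 2-fold. The upper panel shows Meg3, Rian and Mirg above the line for 2-fold and Dlk1 near 0, and the lower panel shows H19 at 1.94 with no other point above 2-fold.

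Genes that act with the members were described in lists written with earlier results of these data known, over genes that reached a mean TPM of 1 and on the log2(TPM + 0.1) scale. In the Igf axis, through which Igf2 acts, 4 of 11 genes were more than 2-fold higher and 1 was lower, beside 5.70% higher and 8.00% lower among all 13269 genes, and the median was 0.79. The higher genes were the adaptor Irs2 (2.09, 477 and 1389 reads), the binding protein Igfbp3 (1.67, 1186 and 2545 reads), the receptor Igf1r (1.28, 2303 and 3778 reads) and the RNA-binding protein Igf2bp3 (1.10, 3605 and 5195 reads). With the trend on GC content and length removed, Igf1r (0.90) and Igf2bp3 (0.89) were under 2-fold. The lower gene was the binding protein Igfbp6 (-2.01, 106 and 16 reads). The receptor Igf2r, itself imprinted and known to clear Igf2, had 0.42, and Insr had 0.79. With the trend removed, Igf2r had 0.07 and Insr 0.32, and the median of the Igf axis was 0.41.

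Among 21 factors of imprint maintenance and DNA methylation, 3 were more than 2-fold higher, none was more than 2-fold lower, beside the same 5.70% and 8.00% of all genes, and the median was 0.46. The 3 were Aff3 (1.62, 299 and 649 reads), which is known to bind imprinting control regions, the de novo methyltransferase Dnmt3b (1.15, 8888 and 13271 reads) and the dioxygenase Tet1 (1.01, 31106 and 42105 reads). The maintenance enzymes Dnmt1 and Uhrf1 had 0.43 and 0.42, and Dppa3, known to protect imprints from demethylation, had 0.97 (159 and 211 reads). Trim28 had 0.46, Ctcf, which binds the H19 control region, had 0.69, and Dnmt3l had -0.39. Zfp57, which recognises methylated control regions, had 0.06, and its sign changed with the scaling of the libraries. In polycomb repressive complex 2, 1 of 7 genes was more than 2-fold higher (Jarid2, 1.15) and none was lower, against these same shares, and the median was 0.23, while Ezh1 had the lowest ratio, -0.56. With the trend removed, Tet1 (0.50) and Jarid2 (0.91) were under 2-fold, whereas Dppa3 (1.15) was past it. The median of the polycomb genes was then 0.07.

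**Figure D5:**
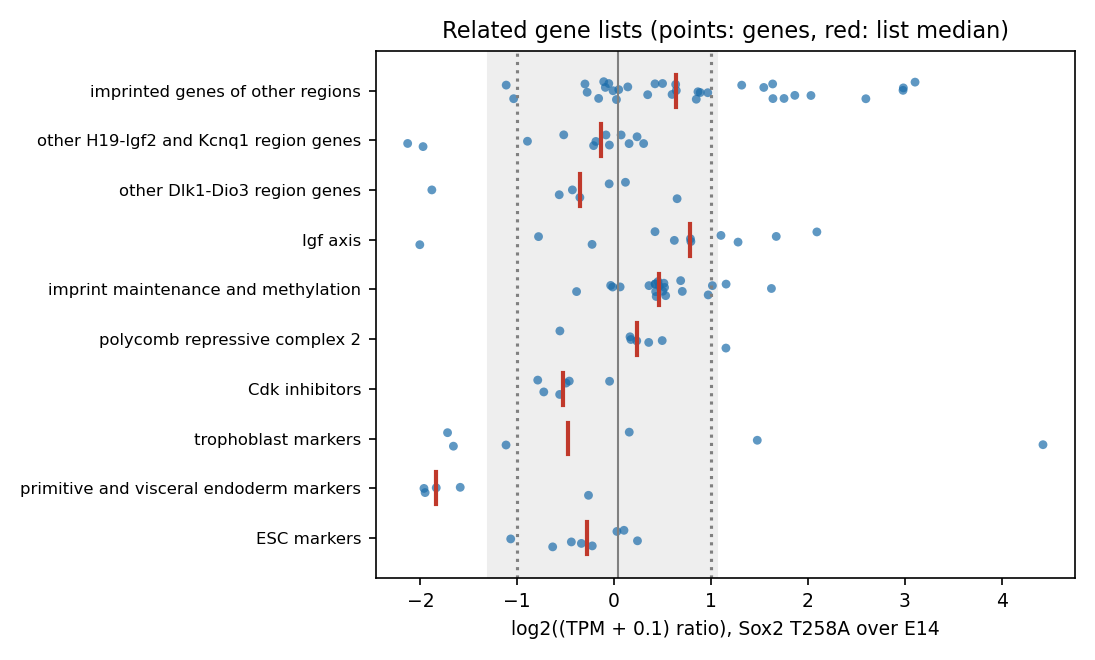
Log2((TPM + 0.1) ratio), Sox2 T258A over E14, of single genes (points) in 10 gene lists with list medians (red bars), for genes that reached a mean TPM of 1; the grey band is the 5th to 95th percentile of all such genes and dotted lines mark 2-fold. The Igf axis and the imprinted genes of other regions have medians of 0.79 and 0.63, and the primitive and visceral endoderm markers have -1.84.

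Several of the 10 genes are also markers of extraembryonic or early differentiated cells, and marker levels differed between the libraries, again beside 5.70% of all genes more than 2-fold higher and 8.00% lower. Of the primitive and visceral endoderm markers, 4 of 5 (Gata6, Gata4, Sox17 and Sox7) were more than 2-fold lower, the summed TPM of the 8 listed was 40.3 in E14 and 16.0 in Sox2 T258A ESCs, and Afp and Ttr had no reads. Of the trophoblast markers, 2 of 6 were higher (Cdx2, 32 and 554 reads, and Eomes, 300 and 575 reads) and 3 were lower (Tfap2c, Gata2 and Krt7), the summed TPM of the 9 listed was 68.9 and 44.2, and Elf5 and Prl3d1 had no reads. Of the early mesoderm markers, 2 of 4 were higher (T, 62 and 606 reads, and Mixl1) and 1 was lower (Pdgfra), with a summed TPM of 11.7 and 22.7 over 6 genes. Of the fibroblast markers, 2 of 3 were lower (Thy1 and Pdgfrb) and Col1a1 had 0.15. The summed TPM of the 8 listed was 49.8 and 19.5, most of it from Thy1 (TPM 40.1 and 11.4), whereas Col3a1 (15 and 151 reads) and Col1a2 (43 and 109 reads) were higher at a mean TPM under 1, and Dcn, Lum and Postn had no reads. Krt7 was under 2-fold (-0.87) with the trend removed. The part of these cells in the levels of H19, Igf2, Dlk1, Phlda2 and Ascl2 was not tested.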

How the data were processed

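The authors deposited 1 table for the mm10 build (GRCm38) with read counts, FPKM and TPM per gene in both libraries. The submitters' processing notes name bcl2fastq 2.20.0, Trimmomatic, HISAT2 2.1.0 and StringTie 2.1.3b, and the builds mm10 and hg19; their roles, strand use and the treatment of multiply mapped reads are not given in the sources used here. The deposited counts are whole numbers without normalization, and the deposited FPKM and TPM values are scaled for length and library by the authors. Depth was 60263536 and 44609228 reads, and a floor of 3 reads corresponded to 0.0498 and 0.0673 CPM.

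Ratios of deposited TPM (Sox2 T258A over E14) were taken without a pseudocount for members and with a pseudocount of 0.1 for lists. Exact 95% intervals of read counts were placed on the TPM scale (scipy 1.17.1). They were tested on simulated counts that held counting error alone, scaled to the library total. That test does not cover the step to the TPM scale or PCR copies. Genes past a TPM of 10 in 1 library and 2-fold were counted, as in the study's methods. Gene positions came from GENCODE and RefSeq annotations of GRCm38, which placed 24462 of 24532 Entrez IDs, and sequences came from RefSeq, whose promoter table was searched without an entry for H19 and Cdkn1c. All members are named. Of each list, the highest, the lowest and the genes past 2-fold with the most reads may be named, and for markers, the Igf axis, maintenance factors and region genes any gene. The members and lists were chosen with earlier results of these data known. Alternatives were CPM, FPKM, TMM (edgeR 4.0.16), median-of-ratios factors (DESeq2 1.42.0), centring, pseudocounts, filters and thresholds. A correction for GC content and length (available for 13231 of 13269 genes), the order of neighbouring levels and the split of neighbours into rows inside and outside members were chosen after seeing the data. Columns of other samples numbered 0.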

Additional observations from a re-analysis of the deposited data

How the results depend on the processing

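No member changed direction in the 9 settings run for each, and with 1 library per genotype no library could be left out. No paired analysis was possible because each group has 1 library. The log2 ratio ranged from 1.34 to 1.68 for Meg3, 1.55 to 1.82 for Rian, 2.19 to 2.61 for Mirg, 1.79 to 2.16 for H19, 0.41 to 0.61 for Igf2, 0.32 to 0.69 for Cdkn1c, -0.99 to -0.40 for Phlda2, -1.59 to -1.15 for Ascl2, 0.11 to 0.72 for Kcnq1ot1 and -0.23 to -0.06 for Dlk1. The lowest Kcnq1ot1 value and the Phlda2 value nearest to 0 came with the GC and length trend removed, and Kcnq1ot1 gave 0.18 with a pseudocount of 1. The cause was not tested.

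The median over all genes was 0.04 with TPM and -0.10 with CPM or FPKM. With CPM, Meg3 moved the other way, from 1.49 to 1.56. The Dlk1-Meg3 median of 1.65 became 1.62 with CPM, 1.72 with TMM, 1.74 with median-of-ratios factors, 1.51 with FPKM, 1.61 with centring and 1.58 with the trend removed. The H19-Igf2 median of 1.24 became 1.11 with CPM, 1.10 with FPKM and 1.38 with the trend removed. The Kcnq1 median of -0.19 became -0.33 with CPM or FPKM and -0.32 with a pseudocount of 1.

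The count of members more than 2-fold higher stayed at 4 under every scaling and filter and was 3 at 3-fold. The count of lower members was 0 with the filter at TPM 10 and 1 (Ascl2) with a filter at TPM 1 or 5 or with none. At 1.5-fold, 1 lower member (Phlda2) passed the TPM 10 filter. Intervals wholly past 1.5-fold gave 2 lower members, and intervals that excluded no change gave 7 higher and 2 lower. The shares of all genes by these looser rules were not computed. Depth limits Dlk1, Ascl2 and the microRNA rows, which had the fewest reads.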

Other observations

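Imprinted genes outside the 3 clusters were also compared. Of 33 listed genes that reached a mean TPM of 1, 11 were more than 2-fold higher, 2 were more than 2-fold lower, and the median log2(TPM + 0.1) ratio was 0.63, beside 5.70% higher and 8.00% lower among all 13269 genes. Peg10, a retrotransposon-derived gene needed for the placenta, had 12481 reads in E14 and 66105 in Sox2 T258A ESCs (TPM 59.4 and 469.9, log2 ratio 2.98), which is more reads in Sox2 T258A ESCs than the 10 cluster genes together. Magel2, of the Prader-Willi region, had the highest ratio, 3.10 (83 and 553 reads), and Zdbf2 had 1.64 (3908 and 8196 reads). Usp29 had the lowest, -1.11 (425 and 123 reads). These 4 genes are paternally expressed in textbooks. They were picked by ratio or reads, and the other listed genes were not sorted by parental allele, so no parental pattern is shown. With the trend on GC content and length removed, Peg10 had 2.72, Magel2 3.28, Zdbf2 1.10 and Usp29 -1.73. Peg3, also among the 11 higher genes, was then under 2-fold (0.96).

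The other inhibitors of cyclin-dependent kinases did not share the higher TPM of Cdkn1c. All 6 had a lower TPM in Sox2 T258A ESCs, Cdkn1b within counting error, and none was past 2-fold. Values ran from -0.79 for Cdkn2b (393 and 151 reads) to -0.05 for Cdkn1b (2286 and 1482 reads). Their median was -0.53, and -0.29 with the GC and length trend removed, beside 0.04 over all 13269 genes. The share of all genes with a lower TPM was not computed. Muscle markers, of a tissue in which H19 and Igf2 are known to be abundant before birth, were at a summed TPM of 25.5 in E14 and 18.6 in Sox2 T258A ESCs, most of it from Des (TPM 22.5 and 12.3), whereas Acta1 had a log2 ratio of 1.40 (107 and 193 reads).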
